A study of Mus musculus with 4 samples.

Results

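The genes described here are the protein-coding mouse genes named Zfp with a number, the zinc finger proteins of the mouse gene nomenclature, that had open chromatin at a gene end in wild-type thymocytes. A gene entered when a region of the wild-type ATAC-seq list lay within 1000 bp of either annotated end of the gene, so the genes were chosen by the wild-type calls and the wild-type values below are a description. By this rule 219 of 397 Zfp genes entered. They were split into 132 clustered genes, with another Zfp gene within 100 kb, and 87 isolated genes. Neighbours with other symbols, such as placeholder names, were not counted, so a gene called isolated may still lie in an array. ATAC-seq uses a transposase that cuts and tags accessible DNA, and a region is an interval in which the authors' peak caller found more reads than the local background.

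Most proteins with this name read DNA with a row of short finger modules, each held in shape by a zinc ion, and a few, such as the CCCH type of Zfp36l1, bind RNA instead. Many of the DNA-binding ones carry a KRAB domain, which recruits the corepressor Trim28 and, through it, enzymes and readers of histone H3 lysine 9 methylation that silence transposable elements. Their genes lie largely in tandem arrays that arose by repeated duplication, and the bodies of such arrays are often themselves packaged in H3K9-methylated chromatin.

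All 4 samples were CD4+CD8+ double-positive (DP) thymocytes, the stage at which the T cell receptor alpha chain is rearranged, sorted from the thymus of C57BL/6 mice at 50000 cells each. The wild type (WT) carried floxed Chaf1b alleles and no Cre (CHAF1bfloxp/floxp), and the knockout (KO) carried the same alleles with Cd4-cre, so that both groups shared the floxed alleles. Cd4-cre is active from about the DP stage, and Chaf1b encodes the middle subunit of CAF-1, which places histones H3 and H4 on newly copied DNA. The labels give no age of the mice. Each group had 2 replicates, but the authors pooled them into 1 list per group, so no value has a replicate spread and no comparison below has a test. Intervals in the text are exact 95% Clopper-Pearson intervals unless named otherwise, and they cover counting error only.

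The WT list held 15215 regions and the KO list 7645. The genome background, in reads per summit position, was 1.372 in WT and 1.032 in KO, a ratio of 0.752, so a WT region could be missing from the KO list at a lower depth alone. The part of depth in the counts below was not tested beyond the comparisons given. A gene end was accessible in WT for 10 of 15 DP thymocyte markers (66.7%, 38.4 to 88.2), Rag1, Rag2 and Cd3d among them, against 34.6% of all protein-coding genes. Of these 10, Cd8b1 was also called in KO (0.253 to 44.5%), against 59.4% of all genes with a WT region. Of 6 B cell markers 1, Ebf1, was accessible in WT, and no myeloid, erythroid, stromal or epithelial marker was.

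The promoters of the highest members turned out to share letters, and a few are printed here because the results return to them. The first group shows 70 bases of Zfp965 and the closest stretch of other Zfp promoters, from the promoter table of RefSeq GRCm38.p6, 5′ to 3′ on the strand of the gene. Capitals mark CCAAT, the box that the factor NF-Y binds. This stretch was chosen after the values were seen. Zfp965 lies at chr2:175469917-175469986 on the plus strand, and Zfp966, Zfp967, Zfp968, Zfp970, Zfp971 and Zfp973, also on chromosome 2, have the same 70 letters.
Zfp965: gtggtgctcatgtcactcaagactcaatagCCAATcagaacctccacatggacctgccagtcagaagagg
Zfp931: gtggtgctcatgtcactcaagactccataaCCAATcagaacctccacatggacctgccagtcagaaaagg
Zfp972: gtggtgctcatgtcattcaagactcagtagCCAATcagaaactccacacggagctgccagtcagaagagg
Zfp932: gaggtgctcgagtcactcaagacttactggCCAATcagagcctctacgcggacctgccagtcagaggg
Zfp958: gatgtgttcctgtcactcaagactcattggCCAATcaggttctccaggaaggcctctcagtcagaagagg
Zfp120: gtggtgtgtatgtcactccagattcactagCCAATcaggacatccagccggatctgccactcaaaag
Zfp935: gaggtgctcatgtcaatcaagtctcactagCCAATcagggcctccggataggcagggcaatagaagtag
Zfp873: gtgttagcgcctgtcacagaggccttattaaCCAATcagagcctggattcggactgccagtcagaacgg
Zfp937: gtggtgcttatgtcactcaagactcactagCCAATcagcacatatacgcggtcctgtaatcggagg
Zfp345: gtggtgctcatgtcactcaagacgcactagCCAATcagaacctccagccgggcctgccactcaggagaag
The first 8 of these genes were in both lists. Zfp937 (chr2:150218010-150218075, plus strand) was in the WT list only, and Zfp345 (chr2:150485118-150485187, minus strand) had no region in either list.

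The second group shows 80 bases from promoters without that stretch, to set members found only in WT beside members found in both lists. Capitals mark matches to the short motifs listed further down. Zfp874a (chr13:67451625-67451704, minus strand) and Zfp12 (chr5:143235083-143235162, plus strand) were the highest members in WT only. Zfp143 (chr7:110061622-110061701, plus strand) was in both lists, and so was Zfp983 (chr17:21650531-21650610, plus strand), whose 80 bases hold no match.
Zfp874a: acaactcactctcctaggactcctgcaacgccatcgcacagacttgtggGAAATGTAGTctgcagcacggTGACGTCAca
Zfp12: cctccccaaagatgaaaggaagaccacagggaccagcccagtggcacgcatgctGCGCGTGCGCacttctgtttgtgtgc
Zfp143: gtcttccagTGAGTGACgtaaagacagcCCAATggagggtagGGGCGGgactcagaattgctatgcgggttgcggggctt
Zfp983: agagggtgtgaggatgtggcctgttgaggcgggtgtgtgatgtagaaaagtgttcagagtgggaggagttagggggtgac

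Zfp genes were accessible at a gene end more often than protein-coding genes in general. The share with a WT region was 55.2% (50.1 to 60.1) of Zfp genes against 34.6% of all 21883 protein-coding genes. It was 58.4% of the 226 clustered Zfp genes and 50.9% of the 171 isolated ones, a difference of 7.53 percentage points with a Newcombe interval of -2.32 to 17.2, which includes 0. The other 178 Zfp genes had no WT region in the window. Just inside the window lay Zfp668 with its region at 986 bp, Zfp219 at 966 bp and Zfp335 at 917 bp. Just outside lay Zfp688 at 1036 bp, Zfp36 at 1049 bp and Zfp41 at 1052 bp.

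In KO, 143 of the 219 genes still had a region at a gene end, which is 65.3% (58.6 to 71.6), and 76 did not. Over all protein-coding genes with a WT region the shares were 59.4% in both lists and 40.6% in WT only, and the interval of the Zfp share includes that background. Zfp219 and Zfp668 count as WT only, although a KO region just outside the window overlapped their WT region, and Zfp422 and Zfp524 count as in both lists, although their KO region did not overlap the WT region. Among clustered genes 83 of 132 were in both lists (62.9%, 54.0 to 71.1), and among isolated genes 60 of 87 (69.0%, 58.1 to 78.5). Clustered minus isolated came to -6.09 percentage points with a Newcombe interval of -18.3 to 6.85, which includes 0. That interval treats genes as independent, although neighbours share arrays and 10 members rest on 5 regions, so it is too narrow and is no test. In the opposite direction, 3 of the 178 Zfp genes without a WT region had a KO region, against 0.894% of all protein-coding genes without one. These were Zfp418 with 10 KO reads at the summit, Zfp850 with 12 and Zfp469 with 13, at or below 13, the lower quartile of KO pileups over protein-coding genes in both lists. The lowest pileup called was 7 reads.

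How high the WT region stood went together with whether the KO list held it. Fold enrichment at the summit, the authors' value over the local background, had a median of 7.83 over the members, 7.71 over clustered and 8.12 over isolated ones, and 7.24 over all protein-coding genes with a WT region. Members in both lists had a median WT fold of 9.03 and those in WT only 6.01. When all protein-coding genes were cut into 5 bins of equal size by WT fold, the share in both lists went from 22.3% in the lowest to 96.6% in the highest. The Zfp genes followed the same steps with 8 of 34, 13 of 35, 29 of 45, 36 of 46 and 57 of 59 genes. The highest bin held 26.9% of the members. With each bin given the same weight, clustered minus isolated was -4.15 percentage points.

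**Figure D1:**
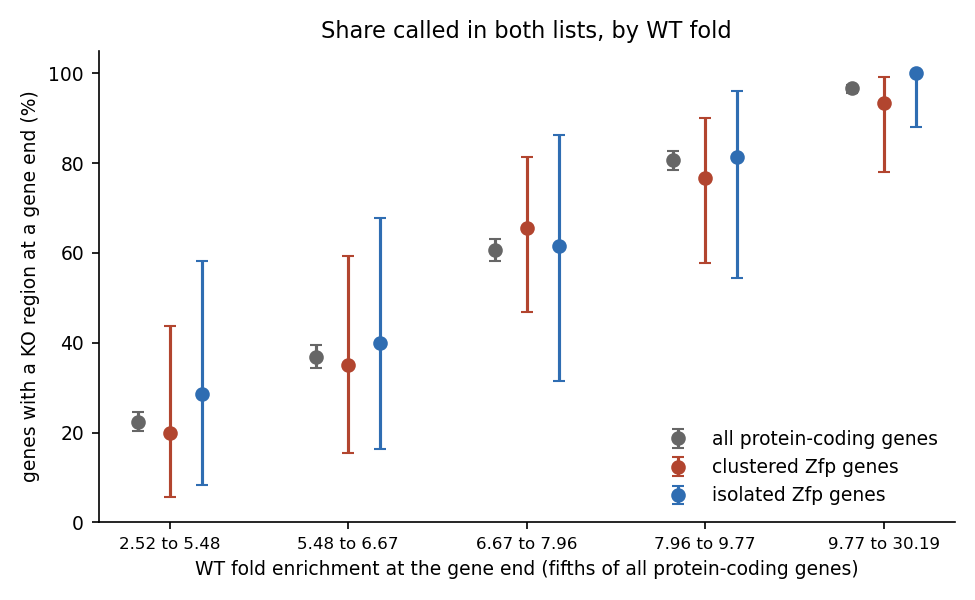
Share of genes with a KO region at a gene end (y axis, %) in 5 bins of WT fold enrichment (x axis) for all protein-coding genes (grey), clustered (red) and isolated (blue) Zfp genes with a WT region; bars are 95% Clopper-Pearson intervals. All 3 sets climb together, from 22.3% of all genes in the lowest bin to 96.6% in the highest, and every Zfp interval includes the grey point of its bin.

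Read numbers at the summits were worked out from the deposited fold and p and show how large the regions were. WT summit pileups of the members ran from 8 to 76 reads with a median of 22, and the pileups of the 143 members in both lists ran from 9 to 58 reads in KO with a median of 17. The highest pileup of a member in WT only was the 31 reads of Zfp667. The 57 members above it were thus in both lists by definition of that cutoff. Over all protein-coding genes the WT pileups of those in WT only reached 71 reads. At the 140 member regions that overlapped a KO region, 4380 WT reads and 2768 KO reads were counted, so KO held 38.7% (37.6 to 39.9), below the 42.9% that the genome backgrounds give and beside 38.3% over all protein-coding genes. Clustered and isolated members gave 39.1% and 38.3%. The KO share was 37.2% at regions with 30 or more WT reads, 39.3% at 20 to 29 reads and 46.0% below 20 reads, and over all genes it was 36.7%, 38.6% and 44.6%. Weak regions enter this count only when both lists called them, which keeps out low KO pileups.

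**Figure D2:**
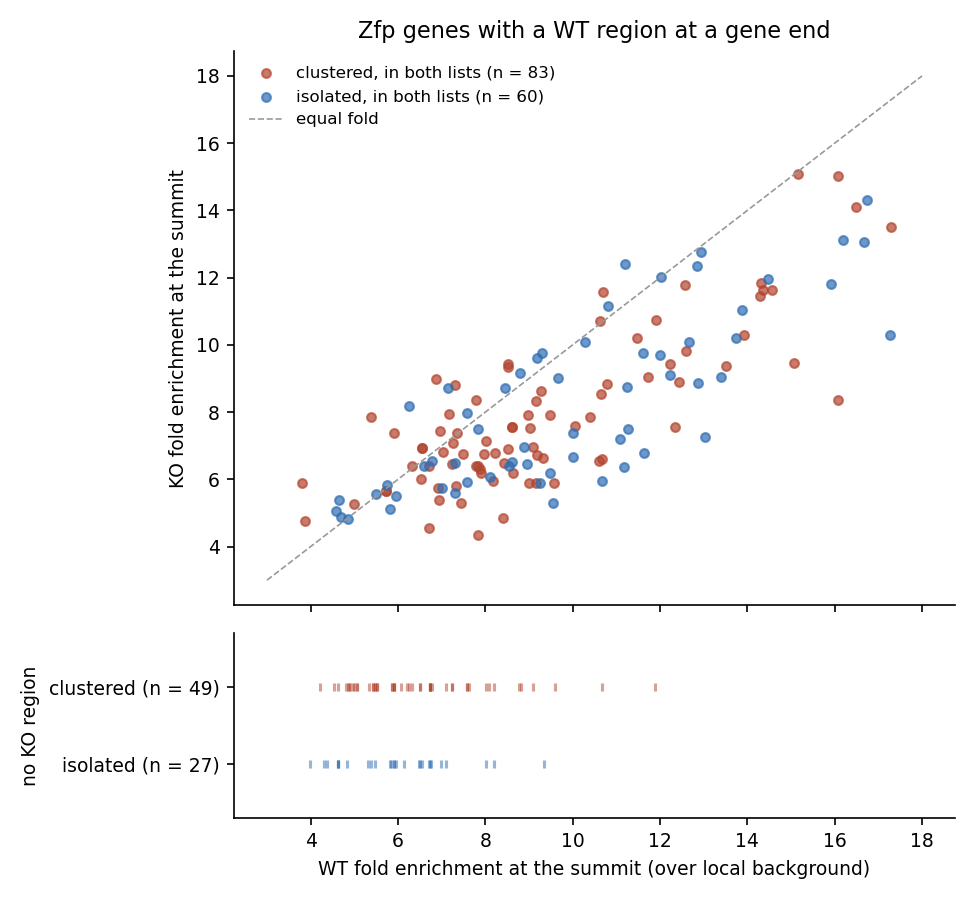
WT fold enrichment (x axis) against KO fold enrichment (y axis) for the 143 members in both lists, clustered in red and isolated in blue; the strips underneath place the 49 clustered and 27 isolated members with no KO region at their WT fold. The KO fold is that of the strongest KO region in the gene's windows, which need not overlap the WT region. It was above the WT fold in 32 of the 143, and the KO pileup was above the WT pileup in 5 of the 143. The members without a KO region lie at or below a WT fold of 11.9.

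The 12 members with the highest WT fold in both lists were Zfp983, Zfp973, Zfp654, Zfp691, Zfp935, Zfp967, Zfp965, Zfp968, Zfp966, Zfp120, Zfp866 and Zfp971. Zfp983, in the chromosome 17 array (region chr17:21650351-21650840), had 72 reads at the WT summit and 46 in KO, a fold of 17.3 and 13.5. Zfp654, an isolated gene (chr16:64851646-64852113), had 76 reads in WT and 58 in KO. Of these 12, Zfp965, Zfp966, Zfp967, Zfp968, Zfp971 and Zfp973 carry the identical 70 bases printed above, and Zfp120 and Zfp935 a related stretch. Zfp965 and Zfp968 are neighbours with the same WT pileup of 44 reads and the same WT fold of 16.1. Their KO pileups were 39 and 16 reads. Zfp965 has 12 near-identical promoter copies and Zfp968 has 13, as described below, so these reads may not be assignable to either gene. Zfp968 gave one of the 3 smallest KO shares of reads of any member, 26.7%, with Zfp638 at 26.3% and Zfp873 at 27.6%. At the other end stood Zfp426 at 57.9%, Zfp90 at 55.9% and Zfp72 at 55.6%, all with 15 WT reads or fewer.

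The 12 highest members found in WT only were Zfp874a, Zfp12, Zfp212, Zfp451, Zfp810, Zfp354c, Zfp2, Zfp729a, Zfp280d, Zfp445, Zfp703 and Zfp382. Zfp874a (chr13:67451469-67451793) had 28 WT reads and a fold of 11.9, Zfp12 (chr5:143234960-143235337) 28 reads and a fold of 10.7, and Zfp212 (chr6:47920419-47920771) 28 reads and a fold of 9.60. The first 2 were the only members of the highest fold bin without a KO region. The other 9 had folds from 8.01 to 9.35 and 18 to 29 reads. The members with the lowest WT -log10 q were Zfp426 (2.11, 8 reads), Zfp266 (2.88, 9 reads) and Zfp184 (3.23, 10 reads), and Zfp426 was in both lists although Zfp874a was not.

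Zfp genes with a described function were found on both sides. Of 36 such genes on the list, 18 were members, and 10 of the 18 were in both lists (55.6%, 30.8 to 78.5), an interval that includes the 59.4% of all genes. Zfp143, an activator that binds many promoters of housekeeping and small nuclear RNA genes, had 51 WT and 27 KO reads. Zfp932, a KRAB protein that represses endogenous retroviruses, had 48 and 27 reads. Zfp809, which silences Moloney-type retroviruses at their primer binding site, had 30 and 13 reads. Zfp335, needed for the maturation of T cells, had 14 and 13 reads. The remaining members in both lists were Zfp281, Zfp830, Zfp131, Zfp91, Zfp687 and Zfp292. In WT only were Zfp445, a guardian of genomic imprints, with 20 WT reads, Zfp36l1, an RNA-binding protein that speeds the decay of mRNAs with AU-rich elements, with 19, and Zfp410, an activator of Chd4, with 12. Zfp451, Zfp318, Zfp644, Zfp384 and Zfp703 were also in WT only. Zfp445 shares its region with Zkscan7, a zinc finger gene outside the Zfp names, so the region cannot be given to either gene.

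The genes that KRAB zinc finger proteins work through were also found on both sides. Of 27 genes on the list that were found in the gene table, 18 had a WT region and 8 of these a KO region (44.4%, 21.5 to 69.2). Trim28, the corepressor itself, had 17 WT and 16 KO reads, and Morc2a, an ATPase that works with the HUSH silencing complex, had 36 and 12. Hdac2, Mphosph8, Daxx, Trim24, Cbx3 and Resf1 were also in both lists. In WT only were Suv39h1 and Suv39h2, which methylate H3K9, Ehmt1, Cbx5, Uhrf1, Hdac1, Trim33, Atf7ip, Pphln1 and Atrx. The median WT fold of these 18 genes was 5.77, lower than the 7.83 of the Zfp members. The interval of their share includes the 59.4% of all genes.

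Tandem arrays are given one by one, as a description. The Zfp genes formed 52 loci of 2 or more genes, and 20 of them held 4 or more genes, with 152 genes, 91 members and 55 members in both lists (60.4%, 49.6 to 70.5), near the 59.4% of all genes. In 4 of these 20 loci, with 5, 4, 3 and 2 members, every member was in both lists, and in 3, with 5, 2 and 1 members, none was. Neighbours can share a region and most loci hold few members, so these counts do not set arrays apart. The spans of the 52 loci held 202 WT regions, of which 135 lay at a Zfp end and 50 at no protein-coding gene end, and 127 KO regions.
The largest array, on chromosome 13 (chr13:67038594-67827000), had 23 Zfp genes, 14 with a WT region and 10 in both lists. Its member with the highest WT fold, 12.6, was Zfp493 with 35 WT and 19 KO reads. Zfp456 had 35 and 23 reads, Zfp87 had 36 and 30, and Zfp58 had 13 and 14. Zfp712, Zfp457, Zfp429, Zfp748, Zfp85 and Zfp273 were also in both lists. Zfp874a, Zfp729a, Zfp738 and Zfp953 were in WT only with 28, 20, 15 and 11 reads. Members in WT only lay between members in both lists along this array.
The chromosome 17 array (chr17:21383707-21994366) had 13 genes, 10 with a WT region and 7 in both lists. Zfp677, Zfp54, Zfp51, Zfp53, Zfp948, Zfp983 and Zfp995 were in both lists with 21 to 72 WT reads, and Zfp820 and the pair Zfp942 and Zfp943 were in WT only with 13. The WT pileups of both sets did not overlap there, where the pair rests on 1 region. Over all members they did, with 8 to 76 WT reads in both lists and 9 to 31 in WT only.
The chromosome 7 array at chr7:29768552-30169775 had 15 genes, 9 with a WT region and 4 in both lists. Zfp84, Zfp420, Zfp82 and Zfp566 were in both lists with 20 to 30 WT reads, and Zfp940, Zfp74, Zfp14, Zfp382 and Zfp146 in WT only with 13 to 19.

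**Figure D3:**
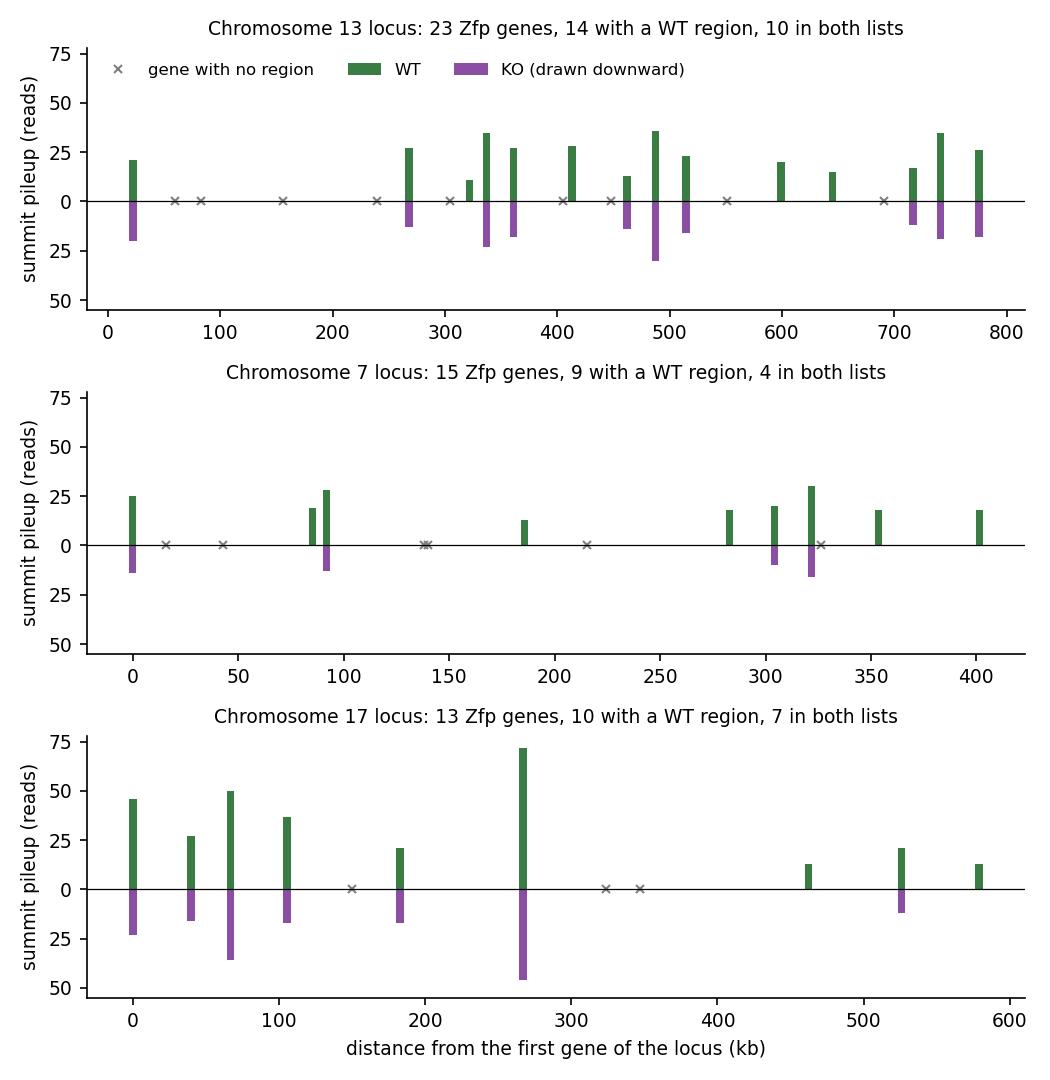
Summit pileup in reads for WT (green, upward) and KO (purple, drawn downward, not scaled for depth) at the Zfp genes of the 3 largest arrays, by distance in kb from the first gene; crosses mark genes with no region in either list. Genes in WT only lie between genes in both lists along the chromosome 13 array, and the tallest bars are Zfp983 on chromosome 17, with 72 WT and 46 KO reads.

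Some smaller arrays had members of 1 kind and others were mixed. At chr7:127233061-127449158 the members Zfp553, Zfp771, Zfp768, Zfp747 and Zfp689 were all in WT only, with 12 to 14 reads and folds from 4.55 to 6.25. At chr7:4915181-5053723 the members Zfp628, Zfp524, Zfp865, Zfp784 and Zfp580 were all in both lists, with folds from 3.86 to 6.70 and 16 to 25 reads. The fold ranges of these 2 arrays overlap although their pileups do not. Over all members the pileups do overlap, with 8 to 76 WT reads in both lists and 9 to 31 in WT only. In the second array Zfp784 and Zfp580 rest on 1 region, and the KO region of Zfp524 did not overlap its WT region. At chr7:12803778-12985717 Zfp329, Zfp110, Zfp128 and Zfp324 were all in both lists with 16 to 29 WT reads and 14 to 21 KO reads. At chr8:69610654-69774911 Zfp868, Zfp964, Zfp869 and Zfp866 were in both lists with up to 60 WT reads, and Zfp963 was in WT only with 19. At chr6:47815536-48086986 Zfp956, with 37 WT and 22 KO reads, was in both lists and Zfp786, Zfp398, Zfp212 and Zfp746 were not.
On chromosome 2 (chr2:177903064-178078425) the 3 members Zfp972, Zfp971 and Zfp931 were in both lists with 22, 52 and 59 WT reads and 13, 36 and 36 KO reads. On chromosome 11 (chr11:50811085-50931661) Zfp354c and Zfp2 were in WT only with 23 and 22 reads. The array at chr4:147124882-147849126 was nearly without regions, with 9 genes and 1 member, Zfp933, in WT only with 12 reads. At chr7:24081877-24316698 only Zfp180 and Zfp94 of 10 genes had a WT region, and both were in both lists.
The other arrays with 3 or more members were mixed or had every member in both lists. Zfp444, Zfp78 and Zfp28 were in both lists and Zfp667 in WT only. Zfp954, Zfp773 and Zfp772 were in both lists, as were Zfp263, Zfp174 and Zfp597. Zfp60 and Zfp607a were in both lists and Zfp607b in WT only. Zfp617 and Zfp961 were in both lists and Zfp709 and Zfp882 in WT only. Zfp426 was in both lists and its neighbours Zfp560 and Zfp266 in WT only. Zfp809 and Zfp599 were in both lists and Zfp810 in WT only. Zfp944 and Zfp758 were in both lists and Zfp946 in WT only. Zfp871 was in both lists and Zfp799 and Zfp870 in WT only. Zfp955a, Zfp955b and Zfp81 were in both lists and Zfp101 in WT only. Altogether 60 of the 93 members in the 19 arrays with 3 or more members were in both lists (64.5%, 53.9 to 74.2), near the 65.3% of all members.

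The accessible end was nearly always the start end of the gene. In the 196 members whose strand the promoter table gives, the strongest region lay at the start of the gene in 193 (98.5%), against 94.3% over all protein-coding genes with a known strand. The WT summit was within 100 bp of the annotated start in 135 of these 193 members (69.9%, 62.9 to 76.3), in 75.2% of clustered and 61.8% of isolated ones, and in 57.0% of all such genes. Within 250 bp it was 171 of 193 (88.6%), against 79.7% of all such genes. Some summits lay far from the nearest start in the promoter table, such as Zfp638 at -47288 bp and Zfp580 at -13064 bp. Over the 196 members the median position was 37 bp before the start, and over all genes 47 bp. The exons and introns around these starts were not analysed here.

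**Figure D4:**
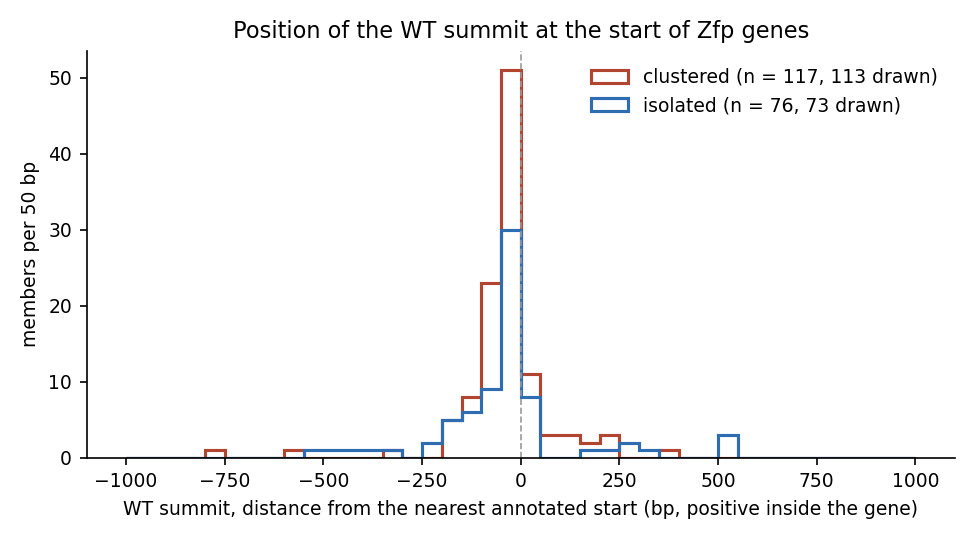
Number of members per 50 bp (y axis) by the distance of the WT summit from the annotated start (x axis, bp, positive inside the gene) for clustered (red, n = 117) and isolated (blue, n = 76) members whose region lies at the start. Both outlines peak in the 50 bp before the start, and 88 clustered and 47 isolated members lie within 100 bp of it.

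Few members shared their region with another gene. The region lay also at the end of another protein-coding gene in 33 of 219 members (15.1%), against 29.8% of all genes with a WT region. It did so with a gene outside the family in 4 clustered and 19 isolated members. In 10 members the other gene was itself a Zfp gene. These pairs were Zfp944 with Zfp758, Zfp784 with Zfp580 and Zfp78 with Zfp28, whose regions were in both lists, and Zfp942 with Zfp943 and Zfp786 with Zfp398, whose regions were in WT only. Each pair counts as 2 members and rests on 1 region.

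Member promoters held fewer CpG than other accessible promoters. In the 300 bases of the promoter table the median was 14.5 CpG over the 196 members found there, 13 over clustered and 17 over isolated members, 22 over other accessible genes and 10 over Zfp genes without a WT region. Members in the third of promoters with the most CpG (19 to 54) were in both lists in 36 of 65 cases (42.5 to 67.7%), those in the middle (11 to 18) in 44 of 63 (57.0 to 80.8%), and those with the fewest (3 to 10) in 47 of 68 (56.7 to 79.8%). The intervals overlap, and all 3 include the 59.4% of all genes. The median WT fold was 6.55, 8.61 and 8.33 in the same order.

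Short motifs were searched on both strands of the same 300 bases. CCAAT was found in 53.1% of the members, 44.1% of other accessible genes and 39.2% of all protein-coding genes. Members with CCAAT were in both lists in 78 of 104 cases (75.0%, 65.6 to 83.0) and those without in 49 of 92 (53.3%, 42.6 to 63.7), and their median WT folds were 9.16 and 6.94. Other accessible genes showed 69.0% with CCAAT and 52.2% without. CCGGAAG, the core bound by ETS factors, was found in 24.5% of the members (18.6 to 31.1), 21.4% of other accessible genes and 11.9% of all promoters. Members with it were in both lists in 39 of 48 cases (81.3%, 67.4 to 91.1) against 59.5% of members without it. Other accessible genes showed 58.0% with CCGGAAG and 60.1% without. GGGCGG, the box bound by SP1, was found in 46.4% of the members, 69.1% of other accessible genes and 46.3% of all promoters. The remaining motifs were rarer. The NRF1 motif, in capitals in Zfp12 above, was found in 8.67% of the members, 12.5% of other accessible genes and 6.66% of all promoters. AAGATGGC, bound by YY1, was found in 6.12%, 4.97% and 3.21%, and TGACGTCA, bound by CREB, in 4.59%, 3.74% and 2.33%. The ZFP143 motif was found in 2.55% of the members, 0.828% of other accessible genes and 0.440% of all promoters. In the same order CACGTG, the E-box, was found in 8.16%, 10.7% and 7.91%, and AGGGGGC, from the site of CTCF, in 10.7%, 17.3% and 12.7%. GTCACTCA and ACTACATTTC were added after the values were seen and were found in 13.3% and 10.2% of the members, against 1.77% and 1.49% of other accessible genes and 1.55% and 0.869% of all promoters. Promoters of Zfp genes without a WT region held ACTACATTTC in 10.4% and the ZFP143 motif in 2.96%. Neither motif was thus more frequent in members than in the other Zfp genes. CCAAT was found in 44.4% and GTCACTCA in 3.70% of those promoters. Every other motif was also less frequent there than in members. GTCACTCA lies inside the stretch of Zfp965, which was picked from members of high WT fold. ACTACATTTC was read from the promoter of Zfp874a, a clustered member that holds it on the other strand. It was found in 18 clustered and 2 isolated members. The shares of both words in members, and the clustered count of the second, are partly fixed by these choices and support nothing. Other motifs went the other way in members. The share in both lists was 60.4% with GGGCGG (55 of 91, 49.6 to 70.5) and 68.6% without (58.8 to 77.3). Other accessible genes showed the reverse, with 62.4% and 53.5%. The member share was 43.8% with CACGTG (7 of 16, 19.8 to 70.1) and 66.7% without (59.3 to 73.5). Other accessible genes showed 59.5% and 59.6%. In members it was 52.4% with AGGGGGC (11 of 21) and 66.3% without, and 58.8% with the NRF1 motif (10 of 17) and 65.4% without. Other accessible genes showed 62.4% and 59.0% for AGGGGGC, and 61.2% and 59.4% for the NRF1 motif. AAGATGGC (12 members) and TGACGTCA (9 members) also had lower shares with the motif, and the ZFP143 motif (5 members), GTCACTCA and ACTACATTTC higher ones. For each motif from GGGCGG on, the intervals with and without it overlap in members. A match is a run of letters and not a measured binding site. Members with CCGGAAG had a median WT fold of 8.94 and those without 7.35.

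The stretch of Zfp965 printed above, or a related one, was found at 8 of the 12 members with the highest WT fold in both lists. Allowing up to 22 edits over its 70 bases, it was found in 31 of 331 Zfp promoters (9.37%) and in 53 of 17160 other protein-coding promoters (0.309%), all 53 of genes with placeholder symbols. Of the 31, 25 were members, on 8 chromosomes, and 24 of the 25 were in both lists. On chromosome 2 lay 11 of the 25, and 16 of the 25 have a near-identical copy elsewhere, as given below, so the 25 are not independent. The 9 without such a copy were all in both lists (66.4 to 100%). The stretch was picked because members of high WT fold shared it, so the higher WT fold of its carriers, a median of 12.8 against 7.36 for the 171 members without it, was fixed by that choice and supports nothing. Of those 171 members 103 (60.2%) were in both lists. Over all protein-coding genes that share reached 96.6% in the highest bin of WT fold. The counts of carriers in both lists, and the 8 of 12, therefore rest on the same choice of stretch and support nothing either. The centre of the stretch lay within 100 bp of the WT summit in 24 of the 25 members, with a median distance of 31.5 bp. In the highest fold bin 19 of 19 members with the stretch and 33 of 35 without it were in both lists.
Several Zfp genes had the stretch and no WT region. Zfp345 has it with 9 edits and Zfp442, Zfp976, Zfp977, Zfp936 and Zfp951 with 15 to 20, and none of these 6 had a WT region. Zfp937 and Zfp442 have the same 66 letters, and Zfp937 had 11 WT reads and no KO region. Without the members that carry the stretch, members with CCAAT were in both lists in 55 of 80 cases (68.8%, 57.4 to 78.7) and those without in 48 of 91 (52.7%, 42.0 to 63.3), with median WT folds of 8.19 and 6.92. The intervals overlap. Over all members in the promoter table, the lowest fold bin went the other way, with 1 of 11 members with CCAAT and 6 of 19 without it in both lists. Bins 2 and 3 had 5 of 13 and 13 of 19 with CCAAT, and 5 of 19 and 14 of 22 without. Bins 4 and 5 had 14 of 16 and 45 of 45 with CCAAT, and 17 of 23 and 7 of 9 without.

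**Figure D5:**
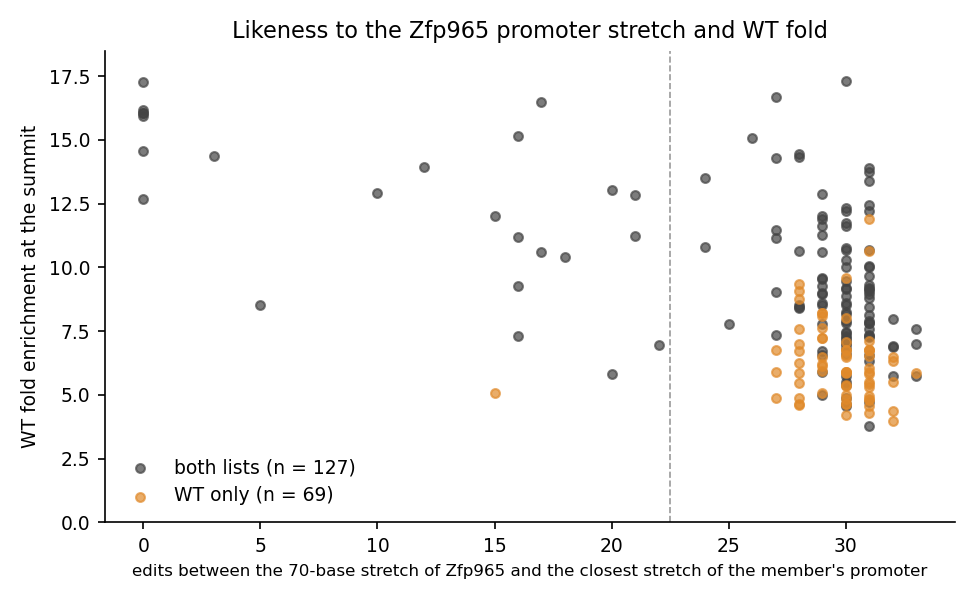
WT fold enrichment (y axis) by the number of edits between the 70-base stretch of Zfp965 and the closest stretch of each member's promoter (x axis) for 127 members in both lists (grey) and 69 in WT only (orange); the dashed line follows 22 edits. Left of the line lie 25 members with folds from 5.06 to 17.3, of which 1 was in WT only, and most members sit between 27 and 33 edits.

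Some of these promoters are near-identical copies, and reads from them may not be assignable to 1 gene. Of the 196 members, 25 had another promoter within 10 edits over 200 bases, 12 of them with 0 edits, and 22 of the 25 were in both lists. On chromosome 2 there were 9, with up to 24 copies for Zfp971. By the split used here 16 of the 25 were clustered and 9 isolated. Zfp970, with 21 copies, counts as isolated, and its closest copy was Gm14440, a placeholder symbol. Zfp955a and Zfp955b on chromosome 17 are copies of each other with 0 edits, and Zfp943 has such a copy in Zfp758. The treatment of reads that align to several places is not given in the sources used here, and their part in these pileups was not tested, so the values of these genes are uncertain. Without them 62.4% of the members were in both lists, 60.3% of clustered and 65.4% of isolated ones.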

How the data were processed

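ATAC-seq of 4 samples in 2 groups was analysed from 1 peak list per group, which the authors made from both replicates, per the labels. The tools FastQC, Trim Galore, Bowtie2, GATK, Picard 4.1.5.0, deepTools 3.4.1 and MACS2 2.1.4 and the build mm10 are named per the submitters' processing notes, while their order, settings, cut-site shift and handling of duplicates are not given in the sources used here. Deposited per region were a score (the whole part of 10 times the -log10 q), the fold enrichment of the summit, the -log10 p and the -log10 q. The authors' fold was used to describe, rank or bin regions and to pick the strongest region of a gene. It also entered the summit pileups solved below and chose the regions kept when the WT list was shortened.

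Summit pileups and backgrounds were solved from the deposited fold, (pileup + 1) / (background + 1), and the Poisson p, and the most frequent background was taken as relative depth. On simulated data 2000 of 2000 pileups were recovered. Library totals were not used here, so depth is known only relative to the other list. Gene ends and promoters came from RefSeq tables of GRCm38.p6, the assembly behind mm10. Promoters were found for 331 of 397 Zfp genes and 196 of 219 members. A member counted as in both lists when any KO region lay in its window of 1000 bp. Likeness of promoters was measured in edits (edlib 1.3.9.post1), and other steps used Python 3.11.15, pandas 2.3.3, scipy 1.17.1 and statsmodels 0.14.6.

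The named genes are the 12 highest by WT fold in both lists and in WT only, all found in KO only, all members of arrays with 3 or more members, the 3 lowest by -log10 q, the 3 just outside the window, the 3 largest and smallest KO shares of reads, and Zfp genes of known role. The members, gene lists and comparisons were chosen with earlier results of these data known. The 70-base stretch and the search for near-identical copies were chosen after the values were seen. Counts of zinc fingers and KRAB domains were planned and not run, since no protein table was used here. Alternatives in window, threshold, overlap, array distance, symbols, binning and copies are given in the closing section.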

Additional observations from a re-analysis of the deposited data

How the results depend on the processing

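Under 15 alternatives for all members and 18 for clustered and isolated ones, the share in both lists stayed within the 95% interval of its reported value except when the WT list was limited to the 7645 regions of highest fold, as many as the KO list has. The shares then rose to 80.8% of members, 78.1% of clustered and 85.0% of isolated ones, and that of all protein-coding genes to 77.8%. In that setting 156 genes were members, and over 10 alternatives the number of members ran from 156 to 239. Clustered minus isolated was negative in 17 of 18 alternatives, from -9.90 with a neighbour within 50 kb to -2.21 at starts only. It was 0.446 percentage points when members were weighted alike over bins of WT pileup, an alternative added after seeing the data, as were leaving out near-identical copies (-5.04) and chromosome 2 (-5.49). All these values lie inside the Newcombe interval of the reported difference. When the KO region had to overlap the WT region, 64.4% of the members were in both lists. No paired analysis was possible because each group has 1 pooled list and no value per replicate, and for the same reason no replicate could be left out. No region was called below 7 reads in either list, so a gene without a KO region is not shown to be closed, and the part of depth was not tested.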

Other observations

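Other zinc finger families were read by the same rule. Of 41 protein-coding genes with symbols starting in Zbtb, most of whose proteins pair zinc fingers with a BTB domain, 22 were accessible in WT and 15 of these also in KO (68.2%, 45.1 to 86.1). Without Zbtb8os, a neighbour of another protein class that carries the prefix, 14 of 21 were (66.7%, 43.0 to 85.4). Zbtb20 had 82 WT and 51 KO reads at the summit, more WT reads than any Zfp member, and Zbtb18 had 47 and 39. Of 16 Zscan genes 7 had a WT region and 3 of these a KO region, and of 11 Zkscan genes 7 and 4. Of 16 Zc3h genes, whose proteins bind RNA through CCCH fingers, 10 had a WT region and 4 of these a KO region, and Zc3h6 was found in KO only with 12 reads. The intervals of all 4 families include the 59.4% of all protein-coding genes, and no family is shown to differ from the Zfp genes.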
